A study of Homo sapiens with 1 sample.

Results

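The cells described here are contractile progenitors rich in WLS, called WLS-rich cells below. They are 343 of the 13736 cells kept after quality filtering, or 2.497% (95% interval 2.24 to 2.77). They were chosen by measured values in 2 steps. First, cells were gated on 3 genes of a contractile, injury-like program, with the unique molecular identifiers (UMIs, counted RNA molecules) of ANXA1, TFPI2 and CTGF summing to 5 or more per 10000 UMIs of the cell, which 1497 cells met. Then the gated cells with 3 or more WLS UMIs were taken, which was 22.9% of the gated cells (20.8 to 25.1). This share depends on depth, and was 10.3% when the same limits were set on cells thinned to 20000 UMIs. They were set against the 888 gated cells with 0 WLS UMIs, called WLS-zero cells, and the 266 gated cells with 1 or 2 WLS UMIs lie between. The 12239 kept cells below the gate serve as the background of the culture.

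All cells came from 1 library of the established human embryonic stem cell line H9. The genotype was WT, so the cells carried the human form of the enhancer HAR123 (hHAR123), with no deletion or replacement. They were on the way to neural progenitor cells (NPCs), by treatment with Dorsomorphin at 1 μM and SB431542 at 10 μM, which block BMP and TGF-β receptors, and Rock inhibitor at 5 μM was present for the first 2 days. The inhibitors stayed on through 5 days in suspension, followed by 7 days replated without them, and the cells were collected ahead of rosette selection. The methods describe a pool of independent clones, which cannot be told apart in the data. With 1 library there were no replicates, cells are not replicates, and no test was run. All intervals are 95% intervals and cover counting error only.

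WLS encodes Wntless, a membrane protein that carries lipid-modified WNT ligands from the Golgi to the cell surface, where they bind Frizzled receptors. CTGF encodes a matricellular protein that is a classic target of the YAP and TEAD transcription factors, which respond to tension and spreading. ANXA1 is a calcium-dependent membrane-binding protein, and TFPI2 is a secreted protease inhibitor. In cells that spread and pull on their substrate, actin, myosin, calponin and transgelin form contractile fibres, and collagens and their crosslinking enzymes make up the matrix that bears the load. In the embryo, WLS is known for its role in WNT-secreting centres such as the roof plate and the midbrain-hindbrain organizer, and NR2F2 for nuclear receptor function in mesenchyme, vessels and the caudal and ventral forebrain.

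WLS UMIs were concentrated in the gated cells. The WLS-rich cells held a median of 7 WLS UMIs at full depth, with a lowest value of 3 and a highest of 40. Of the 3915 WLS UMIs in kept cells, 73.6% lay in these 343 cells. Below the gate, 3.02% of cells had any WLS UMI, against 40.7% of gated cells, and 37 of 12239 cells had 3 or more. Thus 90.3% of all kept cells with 3 or more WLS UMIs passed the gate (86.8 to 93.1). These shares describe the rule and the depth of the cells and are not a finding about the cells. On the WLS scale, the members just inside the limit were 60 cells with 3 UMIs and those just outside were 93 cells with 2 UMIs. On the gate scale, 13 cells with 3 or more WLS UMIs had a gate sum from 5 to below 7, and 5 such cells fell just outside, at 4 to below 5.

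**Figure D1:**
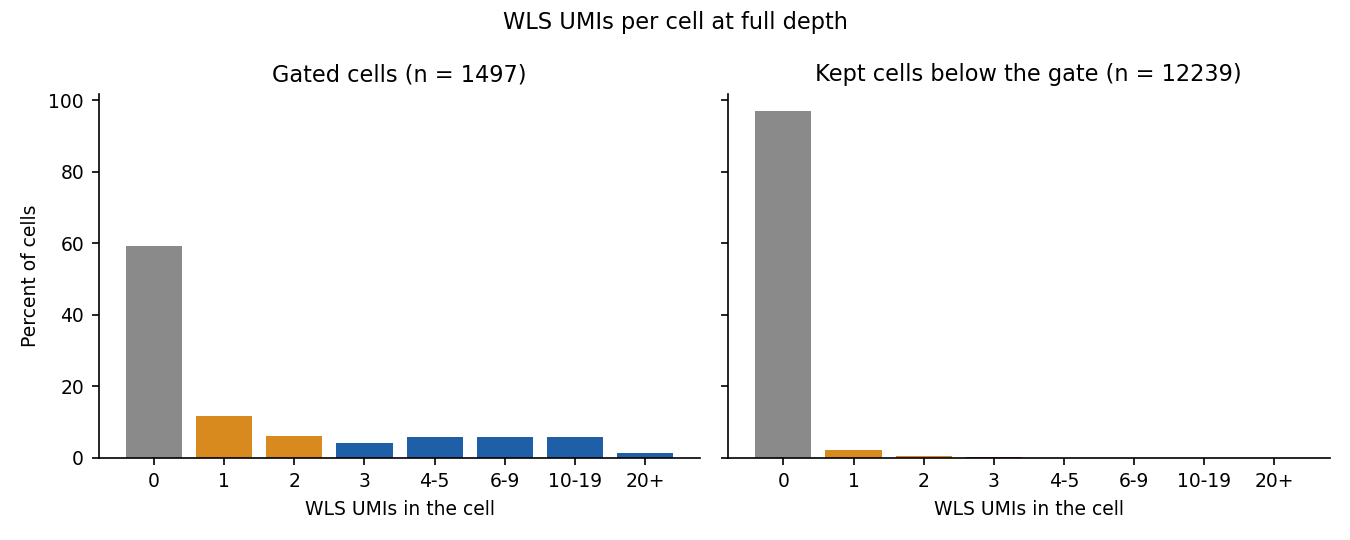
Percent of cells (vertical axis) by the number of WLS UMIs in the cell at full depth (horizontal axis), for the 1497 gated cells (left) and the 12239 kept cells below the gate (right). Grey marks 0 UMIs, orange 1 or 2, and blue or red 3 or more. 22.9% of the gated cells lie at 3 or more, against 0.302% below the gate.

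The rule favours deep cells. The WLS-rich cells had a median of 60421 UMIs, the WLS-zero cells 43079.5 and the cells below the gate 16983. Among gated cells with 20000 to 40000 UMIs, 9.82% were WLS-rich (7.20 to 13.0), and the share was 46.7% among those above 80000 UMIs (37.6 to 56.0). All levels below were therefore measured after each cell had been thinned at random to 20000 UMIs, which left 342 WLS-rich, 838 WLS-zero and 261 intermediate cells, and 4279 cells below the gate. A pooled level in counts per 1000000 UMIs (CPM) is the sum over the cells of a group. At that depth the WLS-rich cells held a median of 5509.5 genes and the WLS-zero cells 5579. Their median mitochondrial shares were 5.38% and 5.14%, and their median shares of ribosomal protein UMIs were 12.8% and 12.4%. The gate itself was passed by a wider margin, with a median gate sum of 23.3 per 10000 UMIs in WLS-rich cells and 17.1 in WLS-zero cells.

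The label of the cells was checked against the markers named with it, COL3A1, LOX, NR2F2 and CD44, which were named with these cells in view, so that their levels are a description. COL3A1, LOX and CD44 passed the level filter used below only through their level in WLS-rich cells. COL3A1, the fibrillar type III collagen chain, was at 28.2 CPM (24.4 to 32.5) in WLS-rich cells and 0.716 CPM in WLS-zero cells, a ratio of 39.4 (22.1 to 77.6). This ratio rests on few UMIs in the WLS-zero cells and ran from 25.8 to 286.3 over the other settings tried. LOX, the enzyme that crosslinks collagen and elastin, was at 30.4 CPM against 3.04 CPM, a ratio of 9.99 (7.33 to 13.9) that was as low as 6.51 in the other settings. NR2F2, the nuclear receptor also called COUP-TFII, was at 126.6 CPM against 15.3 CPM, a ratio of 8.26 (7.18 to 9.53) that was as low as 5.87. CD44, the cell-surface receptor for hyaluronan, was at 42.0 CPM against 3.82 CPM, a ratio of 10.99 (8.35 to 14.6) that was as low as 7.91. Below the gate, COL3A1 was at 1.15 CPM, LOX at 1.45 CPM, NR2F2 at 13.1 CPM and CD44 at 0.491 CPM. For NR2F2 the WLS-zero cells and the cells below the gate were thus close, at 15.3 and 13.1 CPM, and the WLS-rich cells stood apart from both. In GRCh38 with the GENCODE 44 annotation, WLS spans chr1:68098473-68233120 on the minus strand and COL3A1 chr2:188974373-189012746 on the plus strand. LOX spans chr5:122063195-122078413 on the minus strand, NR2F2 chr15:96325938-96340263 on the plus strand and CD44 chr11:35138882-35232402 on the plus strand, so these genes lie on 5 different chromosomes.

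The 4 other markers were not found in every WLS-rich cell. At 20000 UMIs, NR2F2 had a UMI in 74.9% of WLS-rich cells (69.9 to 79.4), 21.8% of WLS-zero cells and 19.98% of cells below the gate, and at full depth in 89.2%, 36.8% and 18.5%. Shares at full depth, here and below, take in all 343, 888 and 12239 cells of these groups. They also include the shallow cells left out of the thinning, and the groups differ in depth. CD44 was found in 36.8% of WLS-rich cells, 5.97% of WLS-zero cells and 0.725% of cells below the gate, and at full depth in 56.0%, 10.9% and 0.637%. LOX was found in 27.8%, 3.82% and 2.73%, and at full depth in 49.3%, 7.43% and 2.41%. COL3A1 was found in 21.1%, 1.19% and 2.06%, and at full depth in 29.7%, 2.59% and 1.74%. At least 2 of the 4 markers were found in 49.4% of WLS-rich cells (44 to 54.85) and in 3.10% of WLS-zero cells (2.04 to 4.51), with 17.6% of the intermediate cells between them (13.2 to 22.8). None of the 4 was found in 15.2% of WLS-rich cells, which is a statement about detection at this depth.

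**Figure D2:**
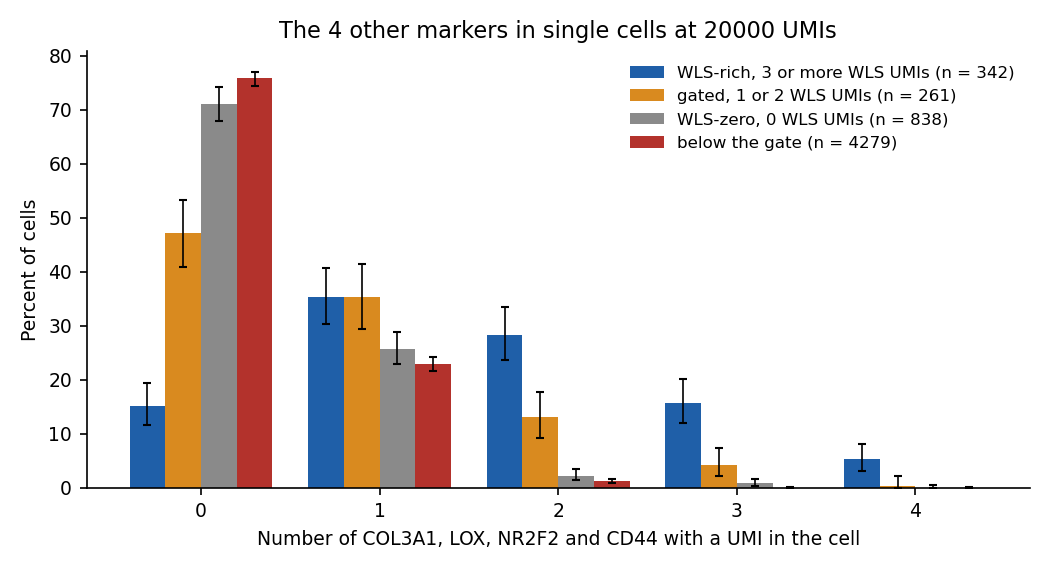
Percent of cells (vertical axis) in which 0 to 4 of COL3A1, LOX, NR2F2 and CD44 had a UMI (horizontal axis) after thinning to 20000 UMIs, with exact 95% binomial intervals. Colours mark the groups named in the legend. At least 2 of the 4 markers were found in 49.4% of WLS-rich cells, 17.6% of intermediate cells, 3.10% of WLS-zero cells and 1.26% of cells below the gate.

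Across the genes with a mean of at least 10 CPM over both groups, most levels were within 2-fold. Of the 9431 genes measured, 294 (3.12%) were at least 2-fold higher in WLS-rich cells and 170 (1.8%) at least 2-fold lower. The median log2 ratio over all of them was -0.04, and 77 genes were 4-fold or more higher and 26 were 4-fold or more lower. A gene can pass the filter through 1 group alone, and its call is then favoured by the filter. This held for 105 of the 294 higher genes, which were under 10 CPM in WLS-zero cells, and for 54 of the 170 lower genes, which were under 10 CPM in WLS-rich cells. The percentages are the background of the counts for each gene group below, and those counts are a description. Among the list genes named below, CD44, NT5E, PLAUR and LEF1 were such higher genes. FZD8, FRZB, PAX7, FEZF1, L1TD1, TEK and KRT19 were such lower genes, and others are given with their lists. Of the genes with the largest ratios, POU3F2, CALCR, KCNQ5, DLC1, ARHGEF28, RHOJ and FLI1 were also such higher genes. Of those with the lowest ratios, ZNF385B and PTPRT were also such lower genes. Genes given below by ratio alone can be such genes too.

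**Figure D3:**
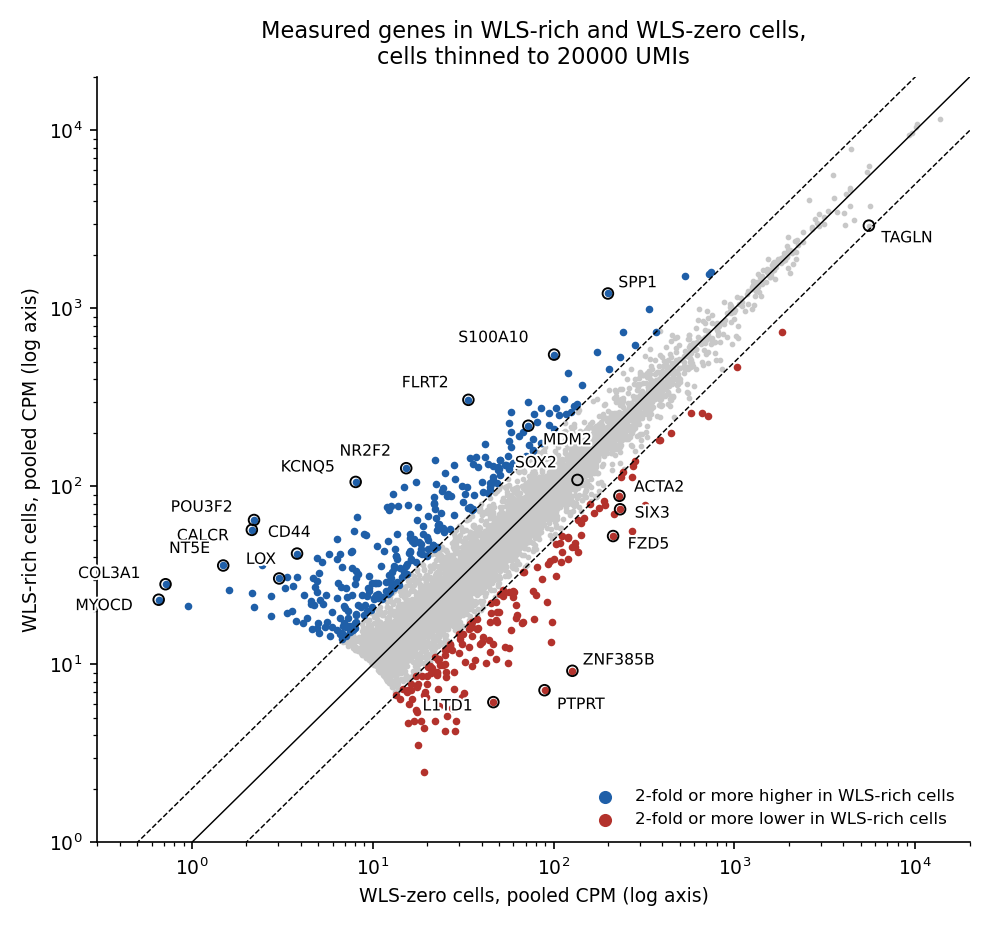
Pooled level of each measured gene in WLS-zero cells (horizontal axis, CPM, log scale) and WLS-rich cells (vertical axis, CPM, log scale), cells thinned to 20000 UMIs. The solid line marks equal levels and the dashed lines 2-fold differences, blue and red mark the 294 higher and 170 lower genes, and rings mark labelled genes. TAGLN, SOX2 and most other genes lie between the dashed lines, and COL3A1, MYOCD and POU3F2 lie farthest above them.

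The genes with the largest ratios among those with a mean of at least 20 CPM were of several kinds. POU3F2 (BRN2), a neural transcription factor of progenitors and upper-layer neurons, was at 64.8 CPM (58.9 to 71.1) in WLS-rich cells and 2.21 CPM in WLS-zero cells, a ratio of 29.3 (21.0 to 42.2). It was not silent outside the gate, where its level was 12.9 CPM, and it was found in 38.9% of WLS-rich cells, 4.18% of WLS-zero cells and 18.7% of cells below the gate, and at full depth in 53.6%, 7.995% and 19.4%. CALCR, the calcitonin receptor, was at 57.0 CPM against 2.15 CPM, a ratio of 26.5 (18.8 to 38.5), and was at 0.175 CPM below the gate. With the cells thinned to 10000 UMIs these 2 ratios were 17.6 and 15.2. KCNQ5, a voltage-gated potassium channel subunit, was at 106.0 CPM against 8.06 CPM, a ratio of 13.2 (10.9 to 15.9), and at 6.53 with the rule applied after thinning, that is, with the gate and WLS limits set on the thinned counts. A single cell held 33 KCNQ5 UMIs and 59.1% of the WLS-rich cells held none.

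FLRT2, a transmembrane ligand in cell adhesion and axon guidance, was at 306.6 CPM (293.6 to 320.0) against 33.8 CPM, and its per-cell median at 20000 UMIs was 4 UMIs in WLS-rich cells and 0 in WLS-zero cells. SPP1, the secreted phosphoprotein osteopontin and a ligand of CD44 and integrins, was at 1213.3 CPM against 199.8 CPM, a ratio of 6.07 (5.83 to 6.32). That ratio was as low as 4.54 in the other settings. The per-cell median of SPP1 was 19 UMIs in WLS-rich cells, 1 in WLS-zero cells, and 108 UMIs were the highest value. Below the gate SPP1 was at 8.37 CPM.

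Signalling regulators and proteins of the cell surface were also among the 20 genes with the highest ratios and a mean of at least 20 CPM. DLC1, a GTPase-activating protein, was at 67.1 CPM against 8.23 CPM. ARHGEF28, a guanine nucleotide exchange factor, was at 41.5 CPM against 5.73 CPM, and its ratio of 7.25 was 2.73 with the rule applied after thinning and 10.97 with no lower mitochondrial limit. RHOJ, a small GTPase of endothelial and migrating cells, was at 56.0 CPM against 7.88 CPM. The membrane proteins EMP1, NETO1, MDGA2 and ADGRG6 had ratios of 7.08, 8.04, 6.62 and 6.42, and that of ADGRG6 was 4.03 with the rule applied after thinning. The transcription factor genes FLI1 and BNC2 were at 41.5 and 77.6 CPM against 6.62 and 12.6 CPM. ATXN1, MT2A (a metallothionein) and the long noncoding RNAs AC092691.1 and PINCR completed the group, with ratios of 6.36, 8.13, 7.13 and 6.22.

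The genes with the lowest ratios were also taken from those with a mean of at least 20 CPM. They included neuronal surface proteins and channels, and patterning genes of the neural plate. ZNF385B, a zinc-finger gene, was at 9.21 CPM (7.08 to 11.8) in WLS-rich cells and 127.1 CPM in WLS-zero cells, 13.8-fold lower, and its ratio of 0.0725 ran from 0.0206 to 0.140 over the other settings. PTPRT, a receptor tyrosine phosphatase, was at 7.16 CPM against 89.1 CPM, 12.4-fold lower, with a ratio of 0.0804 that ran from 0.0642 to 0.143. L1TD1, an RNA-binding protein of pluripotent cells, was 7.57-fold lower, and CNTN5, a contactin of the neuronal surface, was 7.31-fold lower. The ratio of L1TD1, 0.132, was 0.209 with the WLS-zero cells weighted to the depth of the WLS-rich cells (the depth weighting), and that of CNTN5, 0.137, was 0.240 with cells of 2 WLS UMIs taken in. HTR2C, a serotonin receptor, KCNB2, a potassium channel, and EPHA7, an ephrin receptor, were 5.69-fold, 5.44-fold and 4.56-fold lower. The noncoding RNA LINC01551 was at 56.0 CPM in WLS-rich and 270.5 CPM in WLS-zero cells, and MARCH1, a ubiquitin ligase, at 78.5 and 319.3 CPM. ZIC1, SLC1A1, NDST4 and LIX1 were between 4.07-fold and 4.36-fold lower. EPHA7 had a ratio of 0.219 that was 0.334 with the depth weighting, and NDST4 a ratio of 0.241 that was 0.378 with the rule applied after thinning. FZD5, a Frizzled receptor of the eye field and forebrain, was at 52.6 CPM against 213.4 CPM, 4.05-fold lower.

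Forebrain transcription factor genes were lower in WLS-rich cells. Of 9 listed forebrain genes past the level filter, 6 were at least 2-fold lower and none was higher, with a median log2 ratio of -1.65. Of the 6, 4 were at 10 CPM or more in both groups. FEZF1 was 4.68-fold lower, and VAX1, a factor of the ventral forebrain and optic stalk, 3.55-fold lower. SIX3, a homeobox gene of the anterior neural plate named here after its values were seen, was 3.14-fold lower, at 74.4 against 233.3 CPM. SIX3 was at 156.9 CPM in intermediate cells and 339.8 CPM below the gate. It had a UMI in 63.5% of WLS-rich cells (58.1 to 68.6) and 93.9% of WLS-zero cells, and at full depth in 85.1% and 98.2%.

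In a list of dorsal or more caudal neural genes, those past the level filter were not higher either. Of 28 such listed genes, 4 passed the level filter, none was at least 2-fold higher and 2 were lower. ZIC1, a roof and dorsal neural gene, was at 18.0 against 78.4 CPM, and PAX7 was at 3.51 against 17.8 CPM. The PAX7 ratio of 0.197 ran from 0.119 to 0.346 over the other settings. PAX3, another dorsal and neural crest gene, had 1 UMI in the 342 thinned WLS-rich cells, where 3 UMIs would be 0.439 CPM. PAX3, CDH18, RBFOX1 and WLS are markers that the study gave to its subset NPC-3, a choice made with these cells included. The study reported that loss of HAR123 led to this subset and that WT cells lacked it. FZD5 and SIX3, given above, are among its markers of the subset NPC-2. Whether the WLS-rich cells belong to either subset was not tested. Of the NPC-3 markers, CDH18 was at 46.9 against 21.5 CPM and RBFOX1 at 29.8 against 17.4 CPM. The CDH18 ratio of 2.19 (1.87 to 2.55) was the only one of those past 2-fold outside the rule, and it was 1.98 with no thinning.

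Most contractile genes lay within 2-fold of their WLS-zero level. The 26 listed actomyosin genes summed to 17712.3 CPM in WLS-rich cells, 24249.9 CPM in WLS-zero cells and 5953.9 CPM below the gate. Of 22 listed actomyosin genes past the level filter, 1 was at least 2-fold higher, 2 were lower and 19 lay between, with a median log2 ratio of -0.19. TAGLN, the actin-binding protein transgelin, was at 2918.3 CPM in WLS-rich cells, 5538.6 CPM in WLS-zero cells and 593.6 CPM below the gate, so that the WLS-rich level lay between the other two. The TAGLN ratio of 0.527 was as low as 0.453 in the other settings, past the 2-fold limit. ACTA2, smooth muscle alpha-actin, was at 88.6 CPM (81.7 to 95.9) against 231.3 CPM, 2.61-fold lower. CNN1, the smooth muscle calponin, was at 62.3 CPM against 142.7 CPM, 2.29-fold lower, and its ratio of 0.436 reached 0.509 in the other settings. MYOCD, the transcriptional coactivator myocardin that drives smooth muscle genes with SRF, was at 23.1 CPM against 0.656 CPM, a ratio of 35.2 (19.1 to 71.9). It was found in 14.6% of WLS-rich cells, 0.835% of WLS-zero cells and 0.304% of cells below the gate, and at full depth in 22.5%, 2.14% and 0.433%. A single cell held 34 of its 158 UMIs. With the depth weighting the MYOCD ratio was 22.6. MYOCD passed the level filter only through the WLS-rich cells.

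Matrix genes moved in both directions. Of 27 listed collagen and matrix genes past the filter, 7 were at least 2-fold higher and 4 lower, with a median log2 ratio of 0.49. COL3A1 and BGN passed the filter only through the WLS-rich cells, and the other 5 higher genes were at 10 CPM or more in both groups. After COL3A1, the largest ratios were 6.82 (4.83 to 9.77) for BGN, the small proteoglycan biglycan, 3.36 (3.03 to 3.72) for COL1A1 and 3.27 (3.11 to 3.43) for COL8A1. BGN had a ratio of 4.39 at 10000 UMIs. Those of COL1A1 and COL8A1 were as low as 2.28 and 2.35 in the other settings. COL1A1, the type I collagen chain, was at 127.9 CPM in WLS-rich cells, 38.1 CPM in WLS-zero cells and 2.95 CPM below the gate. COL8A1, a short-chain collagen of vessels and sclera, was at 571.2 CPM against 174.9 CPM and 3.40 CPM. The lower genes were THBS1, COL4A6, FBLN1 and COL5A2, with ratios of 0.387, 0.437, 0.488 and 0.499. The last 3 crossed the 2-fold limit in some settings, with highest ratios of 0.506, 0.563 and 0.636. Among 11 genes of matrix crosslinking, LOX and BMP1, the procollagen C-proteinase, were higher, at ratios of 9.99 and 2.12, and LOXL3 was lower, at 0.497. Each of these 3 passed the filter through 1 group only, the one in which it was high. The ratio of BMP1 was as low as 1.61 and that of LOXL3 as high as 0.583 in the other settings.

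In a list of CD44, its partners and small calcium-binding proteins, 5 of 12 genes past the filter were at least 2-fold higher. The other 7 lay within 2-fold, 4 of them at a ratio below 1, and the median log2 ratio of all 12 was 0.78. Beside CD44 and SPP1 the higher genes were S100A10, the annexin A2 partner, at 550.3 against 100.7 CPM, S100A6 at 433.3 against 119.7 CPM, and S100A11 at 989.2 against 336.9 CPM. The S100A10 ratio of 5.47 (5.16 to 5.79) was 3.20 with the rule applied after thinning. S100A10 had a per-cell median of 9.5 UMIs in WLS-rich cells and 0 in WLS-zero cells. Of 10 integrin genes, ITGA2, a collagen-binding subunit, was at 76.2 against 17.8 CPM, a ratio of 4.27 (3.70 to 4.94), ITGA3 had a ratio of 2.32 that was 1.77 with the depth weighting, and none was at least 2-fold lower.

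YAP targets other than the gate gene CTGF showed no common direction between WLS-rich and WLS-zero cells, which were both gated on CTGF. With CTGF included, the 22 listed targets summed to 5028.8 CPM in WLS-rich cells, 5153.3 CPM in WLS-zero cells and 903.6 CPM below the gate. The gate itself fixes part of that difference from the cells below it. Of 19 past the filter, 2 were at least 2-fold higher and 1 lower, with a median log2 ratio of 0.04. NT5E, the ecto-nucleotidase CD73 and a mesenchymal surface marker, was at 36.0 CPM against 1.49 CPM, a ratio of 24.1 (16.0 to 38.0) that was 12.6 with the rule applied after thinning. MYOF, a membrane-repair protein, was at 147.1 against 37.4 CPM, and FJX1 was 2.35-fold lower. In a list of secreted vasoactive and wound factors, 4 of 13 were higher and 1 was lower. Beside SPP1 the higher ones included PLAUR, the urokinase receptor, at a ratio of 3.78 (3.03 to 4.72), and SERPINE2, a protease inhibitor, at 2.09 (1.92 to 2.26). PLAUR was at 2.41 with the rule applied after thinning. The lowest ratio of SERPINE2 in the other settings was 1.49.

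The cells chosen for WLS were not rich in WNT ligands. Of 19 WNT genes, 9 had no UMI in the thinned WLS-rich cells and 2 passed the level filter. A count of 0 in these cells allows a level of up to 0.439 CPM. WNT2B, a ligand of the dorsal midline and eye, was at 24.9 CPM (21.3 to 28.9) against 12.1 CPM in WLS-zero cells and 18.5 CPM below the gate. Its ratio of 2.05 (1.66 to 2.53) was as low as 1.67 in another setting. WNT5B, a ligand of the noncanonical pathway, was at 98.4 against 87.0 CPM, and it was highest below the gate, at 364.9 CPM. The summed level of the 19 ligands was 142.1 CPM in WLS-rich cells, 121.8 CPM in WLS-zero cells and 441.9 CPM below the gate. PORCN, the acyltransferase that lipid-modifies WNT ligands and so makes them cargo for WLS, was at 4.09 against 1.73 CPM, under the level filter.

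WNT receptors and target genes were mixed. Of 15 listed receptor genes past the filter, ROR1, a noncanonical receptor, was higher, at 53.8 against 16.1 CPM, a ratio of 3.35 (2.86 to 3.94). FZD8 was at 6.58 against 31.1 CPM, 4.73-fold lower, and joined FZD5 as the lower genes. The median log2 ratio was -0.07, and FZD2, FZD7 and ROR2 had ratios of 1.38, 0.929 and 0.717. Among 11 targets and inhibitors, LEF1, a nuclear effector of β-catenin, DKK3 and SFRP2 had ratios of 2.45, 2.07 and 2.47, and FRZB, a secreted inhibitor, had a ratio of 0.397. With the rule applied after thinning SFRP2 and LEF1 were at 3.70 and 3.75, and in other settings SFRP2 was as low as 1.76 and DKK3 as low as 1.65, and FRZB was as high as 0.507. AXIN2, a feedback target of the canonical pathway, was at 1.02 against 3.22 CPM, under the level filter in both groups.

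Among TGF-β and BMP genes, 8 of 23 were at least 2-fold higher and 1 was lower, with a median log2 ratio of 0.25. Of the 8, BMP2, BMP6 and LTBP2 passed the filter only through the WLS-rich cells, and the other 5 were at 10 CPM or more in both groups. BMP2, a ligand, was at 20.9 against 2.21 CPM, a ratio of 9.47 (6.557 to 13.99), and BMP6 was at 30.7 against 4.65 CPM, a ratio of 6.597 (5.06 to 8.67). LTBP2, which binds latent TGF-β in the matrix, was at a ratio of 5.82 (4.23 to 8.10), and TGFBR2, the type II receptor, at 3.36 (2.82 to 4.01). BMP2 had a ratio of 5.46 with the rule applied after thinning and LTBP2 of 3.57 with the depth weighting. LTBP1, the relative of LTBP2, went the other way, at 250.0 CPM in WLS-rich and 710.7 CPM in WLS-zero cells, 2.84-fold lower.

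Of 12 listed mesenchyme and neural crest genes past the filter, 6 were at least 2-fold higher in WLS-rich cells and none was lower, with a median log2 ratio of 1.04. NT5E and SNAI2 passed the filter only through the WLS-rich cells, and the other 4 were at 10 CPM or more in both groups. FOXC2, a mesenchymal forkhead factor, was at 28.5 against 10.3 CPM, a ratio of 2.76 that was 1.77 with the depth weighting and 1.61 with the rule applied after thinning. SNAI2, a regulator of epithelial-mesenchymal transition, was at 26.02 against 9.55 CPM, a ratio of 2.73 (2.19 to 3.40), and COL1A2 at 115.9 against 50.7 CPM. TWIST1, a mesenchymal bHLH factor, was at 7.16 against 1.13 CPM and under the level filter, with a UMI in 8.19% of WLS-rich cells, and in 17.8% at full depth. Defining neural crest markers were near 0. SOX10 had 4 UMIs and TFAP2A 2 UMIs in all thinned WLS-rich cells, and FOXD3 and DCN, the fibroblast proteoglycan decorin, had none. Of 7 listed genes of nuclear receptors and retinoid handling past the filter, NR2F2 was higher and CRABP2, a retinoic acid carrier, was lower, at 48.1 against 109.1 CPM. The CRABP2 ratio of 0.441 was 0.509 with the rule applied after thinning. NR2F1, the close relative of NR2F2, was at 10.4 against 5.13 CPM under the level filter, and at 25.7 CPM below the gate.

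Neural progenitor genes were mostly within 2-fold of their WLS-zero level. Of 20 neural progenitor genes past the filter, 1 was at least 2-fold higher, 3 were lower and 16 lay between, with a median log2 ratio of -0.30. SOX2, which maintains neural progenitors, was at 108.8 CPM (101.1 to 116.9) against 135.6 CPM, a ratio of 0.802, and at 404.1 CPM below the gate. It had a UMI in 73.4% of WLS-rich cells, and in 91.0% of them at full depth. PAX6, which marks neuroectoderm and dorsal progenitors, was at 20.3 against 21.1 CPM, a ratio of 0.965 (0.787 to 1.18), and at 54.8 CPM below the gate. The higher gene was POU3F2, and the lower genes were SOX3, HES1 and HES5, at ratios of 0.260, 0.472 and 0.499. POU3F2 passed the filter only through the WLS-rich cells, and SOX3 and HES5 only through the WLS-zero cells. HES1 reached 0.579 and HES5 0.594 in the other settings. SOX2 and NR2F2 were found in the same cell in 56.1% of WLS-rich cells (50.7 to 61.5) and 18.3% of WLS-zero cells (15.7 to 21.0). These shares carry the difference in NR2F2 given above, and whether the genes go together within cells was not tested.

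RNA of p53 targets was higher in WLS-rich cells. All 15 listed targets past the filter had a ratio above 1, 8 were at least 2-fold higher and none was lower, with a median log2 ratio of 1.01 that ran from 0.92 to 1.19 over the other settings. Of the 8, 6 were at 10 CPM or more in both groups. GDF15, a stress cytokine, was at 49.4 against 12.1 CPM, a ratio of 4.08 (3.42 to 4.88). CDKN1A, the cyclin-dependent kinase inhibitor p21, was at 90.2 against 26.2 CPM, a ratio of 3.44 (3.04 to 3.90). MDM2, the ubiquitin ligase of p53, was at 219.3 CPM in WLS-rich cells, 72.6 CPM in WLS-zero cells and 69.0 CPM below the gate, a ratio of 3.02 (2.80 to 3.26). PHLDA3, an inhibitor of AKT, had a ratio of 2.88 (2.40 to 3.45). Proliferation genes lay within 2-fold of their WLS-zero level. The mitosis list summed to 1822.4 CPM in WLS-rich cells, 2149.2 CPM in WLS-zero cells and 4152.9 CPM below the gate. The replication list summed to 914.9, 1092.5 and 1413.1 CPM. None of 14 mitosis genes and none of 14 replication genes passed 2-fold, while 12 genes of each list had a ratio below 1. The median log2 ratios were -0.22 and -0.35, the first of which was as low as -0.53 in the other settings, and MKI67, a proliferation marker outside the named-gene rule, was at 101.8 against 120.5 CPM. Cell-cycle phases were not called.

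**Figure D4:**
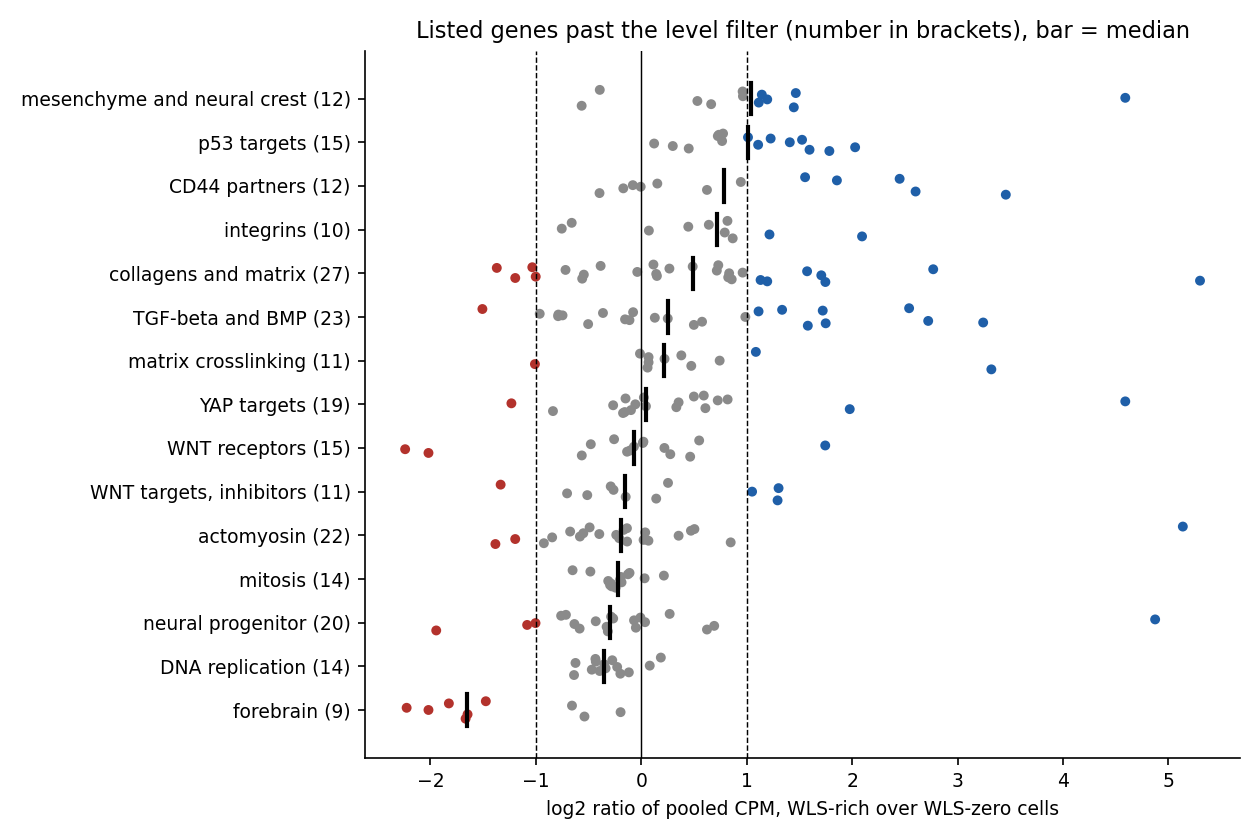
Log2 ratio of pooled CPM in WLS-rich over WLS-zero cells (horizontal axis) for each listed gene past the level filter (points), by list (vertical axis, number of genes in brackets). Black bars are list medians, dashed lines are 2-fold limits, and blue and red mark genes past them. The p53 target points all lie above 0 and the forebrain points all below 0, with medians of 1.01 and -1.65.

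Marker lists of other cell types ranged widely in summed level in WLS-rich cells. No endoderm or choroid plexus gene passed the level filter. The 8 endoderm genes summed to 20.6 CPM in WLS-rich cells and 20.3 CPM in WLS-zero cells. The 7 choroid plexus genes summed to 7.16 and 6.86 CPM. TTR, SOX17, FOXA2, TBXT, HAND1, MYH6, MYOD1, CDH1 and KRT5 had no UMI in the thinned WLS-rich cells. The endothelium and blood list summed to 126.2 CPM in WLS-rich cells, 60.3 CPM in WLS-zero cells and 27.3 CPM below the gate. In the endothelium and blood list, RUNX1, a factor of blood and many progenitors, was at 88.6 against 25.9 CPM and TEK, a vascular receptor, was at 4.68 against 15.7 CPM, with the endothelial markers PECAM1 at 0.292 CPM and CDH5 at 2.19 CPM. The 13 genes of the mesoderm and muscle list summed to 423 CPM in WLS-rich cells, 338 CPM in WLS-zero cells and 16.8 CPM below the gate. Most of this was ACTC1, cardiac alpha-actin, at 409.5, 329.7 and 14.1 CPM, the only gene of the list past the filter. The 14 genes of the epithelial list summed to 734.2, 660.5 and 210.4 CPM, mostly the keratins KRT8 and KRT18 at ratios of 1.10 and 1.17, and KRT19 was lower, at a ratio of 0.349. The 11 genes of the neuronal list summed to 373.8, 291.2 and 465.9 CPM. Of its 5 genes past the filter, 4 had a ratio above 1 but under 2, among them GAP43 at 1.77, and DCX was lower, at 13.7 against 43.9 CPM. The part of other cell types in these results was not tested. In the pluripotency list LIN28A was at 113.3 against 236.6 CPM, beside L1TD1, with a ratio of 0.479 that reached 0.519 in the other settings, and POU5F1 and NANOG had 1 UMI each. Of 13 immediate early and stress genes, FOSL1 and KLF6 were higher, at ratios of 3.20 (2.72 to 3.76) and 2.98 (2.75 to 3.23).

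The levels of several genes were ordered by the number of WLS UMIs at full depth, also among the WLS-rich cells. The genes followed here were picked after their values were seen, and the bins are a description that shares the cells of the rule. COL3A1 was at 0.716, 2.34 and 3.33 CPM in cells with 0, 1 and 2 WLS UMIs. It was at 5.00 CPM at 3 UMIs, 14.4 CPM at 4 to 5, 23.9 CPM at 6 to 9, 51.7 CPM at 10 to 19 and 73.8 CPM in the 21 cells with 20 or more. POU3F2 was at 18.3, 18.4, 51.7, 130.2 and 176.2 CPM over the same 5 bins of WLS-rich cells, and CALCR at 16.7, 32.8, 60.8, 88.4 and 128.6 CPM. NR2F2 was at 15.3, 41.2 and 55.0 CPM in cells with 0, 1 and 2 WLS UMIs. It was at 106.7 CPM at 3 UMIs and lay between 97.7 and 157.6 CPM beyond, without a steady order. SIX3 was at 233.3 CPM at 0 UMIs, 105.8 CPM at 3 UMIs and 40.5 CPM at 20 or more. TAGLN was at 5538.6 CPM at 0 UMIs and 3631.7 CPM at 3 UMIs, and lay at 2370.9 and 2602.4 CPM in the top 2 bins, and SOX2 lay between 86.2 and 152.4 CPM in all 8 bins with no order. Median totals were 43079.5, 50420.0 and 51713.0 UMIs in the cells with 0, 1 and 2 WLS UMIs, and 60700.0, 54758.5, 62611.5, 60408.0 and 72819.0 UMIs in the 5 bins of WLS-rich cells. Depth was thus highest in the top bin and had no steady order between 3 and 19 WLS UMIs, and its part in these orders was not tested.

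**Figure D5:**
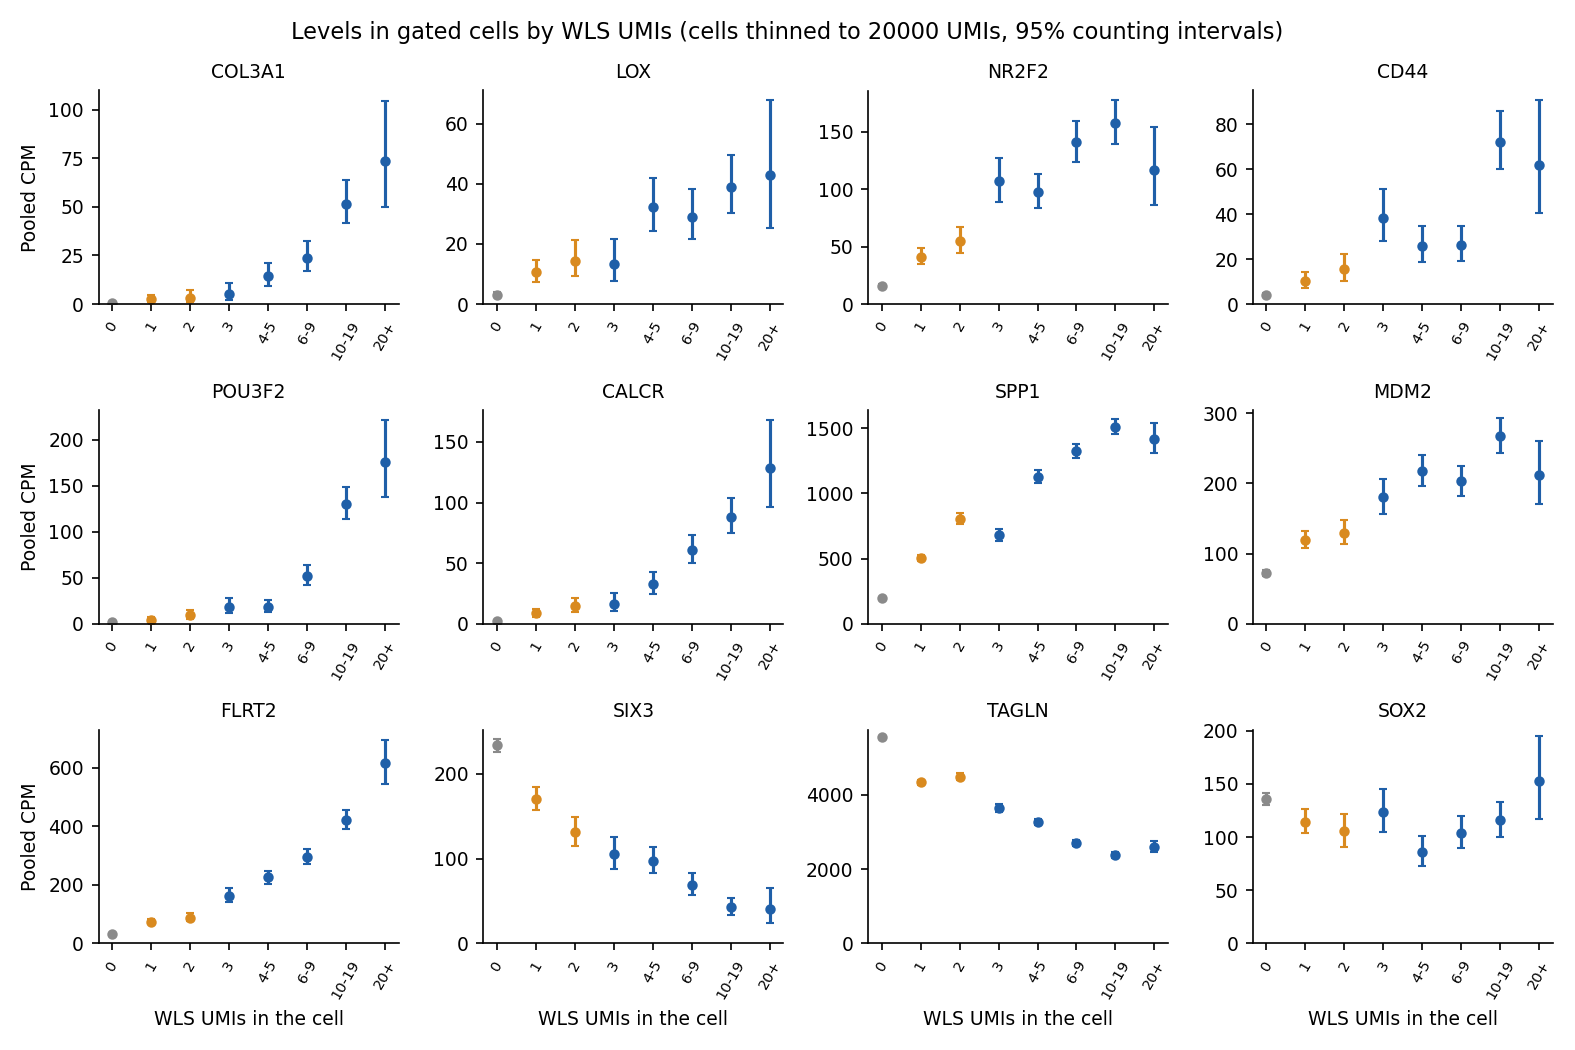
Pooled CPM (vertical axes, each from 0) of 12 genes in gated cells by WLS UMIs in the cell (horizontal axes), cells thinned to 20000 UMIs. Points are pooled levels with exact 95% Poisson intervals, in grey for 0, orange for 1 or 2 and blue for 3 or more WLS UMIs. COL3A1, POU3F2 and CALCR are highest at 20 or more UMIs, at 73.8, 176.2 and 128.6 CPM, SIX3 is lowest there, at 40.5 CPM, and SOX2 shows no order.

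The WLS-rich cells differed among themselves along 3 leading components of their expressed genes, which held 7.60%, 6.10% and 4.33% of the variance. The first had ribosomal protein genes such as RPLP1 and RPS12 at 1 end and AUTS2 and TENM3 at the other. The second had genes of dividing cells such as TPX2, CENPF and MKI67 at 1 end and RPS27L, PURPL, PTCHD4 and MDM2 at the other. The third had FRMD6, ANXA2, ITGB1 and MYOF at 1 end and NASP, GPC3 and LIN28A at the other. Divided by MKI67, the 136 cells without a UMI had CDKN1A at 135.3 CPM and MDM2 at 308.5 CPM, and the 206 cells with a UMI had 60.4 and 160.4 CPM. MYOCD was at 33.1 and 16.5 CPM in these 2 sets, FLRT2 at 401.5 and 243.9 CPM, COL1A1 at 162.9 and 104.9 CPM and CD44 at 52.6 and 35.0 CPM. WLS was at 161.4 and 134.7 CPM, NR2F2 at 134.9 and 121.1 CPM and COL3A1 at 28.7 and 27.9 CPM.

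Divided by NR2F2, the 86 cells without a UMI had POU3F2 at 18.6 CPM and ACTA2 at 145.3 CPM, and the 256 cells with a UMI had 80.3 and 69.5 CPM. The genes used for dividing the cells were chosen after their values were seen.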

How the data were processed

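Single-cell RNA-seq (10x Chromium 3' HT) of 1 library was used. The authors deposited raw UMI counts per gene and barcode, made with Cell Ranger 7.0.1 at default settings on GRCh38, with no normalization; the annotation version and counting strand are not given in the sources used here. The file holds 33538 genes and 14726 barcodes. Barcodes with 2000 to 10000 genes and a mitochondrial share from 0.01 to below 0.1 were kept; the study's methods give the gene limits and an upper mitochondrial limit, read here as a fraction, and the lower one was set for this work. Members followed the gate and WLS limits given above. Cells were thinned without replacement to 20000 UMIs (shallower cells left out), and pooled CPM was compared. Genes with a mean of 10 CPM over both groups were measured, leaving out the 4 genes of the rule, and called at a ratio of 2 or 0.5. Levels carry exact Poisson intervals, ratios exact conditional intervals and shares Clopper-Pearson intervals. PCR duplicates were removed by the UMIs.

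Named genes were the 20 highest and 15 lowest ratios with a mean of at least 20 CPM, the markers, and from each of 32 lists up to 4 genes past 2-fold in each direction plus genes of a defining role. Genes named outside this rule (other tested members given for a list, defining markers of other cell types and the genes of the WLS bins and divisions) were picked after their values were seen. The members and lists were chosen with earlier results of these data known. Scrublet (scanpy 1.11.5) at an expected rate of 8% called 1 of 14726 barcodes and so had not worked; no doublets were removed, and an alternative left out the highest 8% of scores. Free RNA was not removed. The scripts were tested on simulated data. Intervals used scipy 1.17.1, matrices numpy 2.4.6 and anndata 0.12.19, tables pandas 2.3.3 and figures matplotlib 3.10.9, under Python 3.11.15. The study's methods pooled 2 clones. The values of some genes that the rule names are not reported here.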

Additional observations from a re-analysis of the deposited data

Results flagged for a closer look

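Some barcodes left out of the comparison met its gate and WLS limits. Of the 990 barcodes left out by the quality filter, 57 passed the gate and had 3 or more WLS UMIs. Of these, 50 had more than 10000 genes, 5 had 10% or more mitochondrial UMIs and 2 had under 1%, and their median total was 106573.0 UMIs. Barcodes this deep can hold more than 1 cell, which was not tested. At full depth their pooled levels, beside the WLS that the rule fixes, were 153.9 CPM for NR2F2, 22.1 CPM for COL3A1 and 88.7 CPM for POU3F2.

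Below the gate, 37 kept cells had 3 or more WLS UMIs, and 33 of them were deep enough to be thinned. Their pooled levels at 20000 UMIs were 122.7 CPM for NR2F2 and 72.7 CPM for POU3F2. COL3A1 was at 7.58 CPM and LOX had no UMI, while SIX3 was at 172.7 CPM and SOX2 at 248.5 CPM.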

How the results depend on the processing

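The share of gated cells that were WLS-rich, 22.9%, was 10.3% with the rule applied after thinning, 29.1% with a limit of 2 WLS UMIs, 15.8% with 5, 25.8% with a gate of 10 per 10000 and 20.8% without cells over 80000 UMIs. The counts of 294 higher and 170 lower genes were 193 and 109 with a filter of 20 CPM, 3623 and 4351 with no filter, where single UMIs give large ratios, and 640 and 523 with a limit of 1.5-fold. Under the 14 other settings for cells, depth and weights the counts stayed within 1.5 times the main ones. No gene called higher fell below a ratio of 1 and none called lower rose above it. Not all of the same genes were called again. With the depth weighting, 236 of the 294 higher and 114 of the 170 lower genes were, and with another thinning seed 269 and 147 were. Of 1568 ratios recomputed for 112 genes, 1271 stayed within the counting interval and none past 2-fold reversed. Depth limits the shares of cells with a UMI. No paired analysis was possible because there was 1 library.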

Other observations

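The median log2 ratio of the measured genes on each autosome ran from -0.086 (chromosome 14) to -0.004 (chromosome 20), over 9418 genes with a position. The share of WLS-rich cells among the highest 8% of doublet scores was 9.91%, against 8.45% of WLS-zero cells and 7.76% of cells below the gate.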
